A study of Mus musculus with 9 samples.

Results

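Tuft cells are rare chemosensory cells of the intestinal epithelium. They sense luminal signals through a taste-like cascade that opens the cation channel Trpm5, and their fate depends on the transcription factor Pou2f3. They release interleukin 25, which acts on group 2 innate lymphoid cells, and lipid mediators such as cysteinyl leukotrienes and prostaglandins. Interleukin 13 from the lymphoid cells in turn expands tuft and goblet cells. The 9 genes described here, Dclk1, Pou2f3, Trpm5, Alox5ap, Il25, Avil, Gfi1b, Sh2d6 and Ptgs1, were picked by name from the 54532 genes of the deposited FPKM table (fragments per kilobase of gene length, scaled to library size). They were picked when earlier results on these libraries were known, so their levels and fold changes are given as a description.

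RNA of mouse duodenum was sequenced in 9 libraries, 3 per group. CeD+GR mice were a celiac disease delayed-type hypersensitivity (DTH) model that received gliadin-rapamycin composite nanoparticles before enhanced gluten stimulation. CeD mice were the same model with the enhanced stimulation and no nanoparticles. Control mice were wild type (WT) with non-enhanced gluten stimulation, so model and stimulation differ together between CeD and control. Gliadin is a protein fraction of gluten, and rapamycin inhibits the kinase mTOR. Strain and age are not in the labels, nor is it stated that each library is a mouse of its own, so p-values measure only the spread between these libraries, and that spread may be technical.

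Each library held 15373260 to 16852104 gene reads, as recovered from the FPKM steps. The 14683 genes averaging 0.5 FPKM or more entered the tests. Some libraries stood apart in marker transcripts of other cells or tissues. CeD+GR 3 held Tff2 at 116000 FPKM and Muc6 at 3270 FPKM, against at most 46.5 and 0.0839 FPKM elsewhere. Both are on the gastric marker list, and which gland or tissue they came from was not tested. CeD 1 held the pancreatic transcript Ctrb1 at 1470 FPKM, and CeD+GR 2 the fat cell transcript Adipoq at 26.6 FPKM. The replicate 1 library of each group was high in the Paneth cell transcript Defa24, at 611 to 1330 FPKM, against 27.9 to 77.8 FPKM in the other 6 libraries. The epithelial marker Epcam stood at 444 to 992 FPKM.

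All 9 tuft cell genes had reads, at low to moderate levels. By mean FPKM over the 9 libraries, a level per gene length, Ptgs1 was highest at 7.72, followed by Sh2d6 at 5.12, Avil at 3.67, Alox5ap at 3.66 and Trpm5 at 2.49. Dclk1 at 0.906 and Pou2f3 at 0.751 came next, then Gfi1b at 0.226 and Il25 at 0.104. Each pair of neighbours in that order overlapped in its range over the libraries. Gfi1b and Il25 missed the filter, so 7 of the 9 genes were tested. Recovered reads over all libraries ran from 4420 for Ptgs1 and 2316 for Trpm5 to 335 for Pou2f3, 61 for Gfi1b and 16 for Il25. In a whole-tissue sample fewer tuft cells and less RNA per tuft cell cannot be told apart.

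The promoter sequences of Trpm5, Dclk1 and Gfi1b are shown because these genes lay below every control library in CeD+GR. Of all tested genes 3.04% did so. Those of Sh2d6 and Avil are shown because they hold the motif matches. Of the 9 genes, 6 had an entry in the RefSeq promoter table (GRCm38.p6, the assembly of mm10), with 7 start sites in all, since Dclk1 has 2. The RefSeq start of Sh2d6 lies within the gene as the deposited table gives it. Each line gives the 250 bases before a start site, 5′ to 3′ on the gene's strand, with motif matches in capitals.
Trpm5, chr7:143094643-143094892, minus strand: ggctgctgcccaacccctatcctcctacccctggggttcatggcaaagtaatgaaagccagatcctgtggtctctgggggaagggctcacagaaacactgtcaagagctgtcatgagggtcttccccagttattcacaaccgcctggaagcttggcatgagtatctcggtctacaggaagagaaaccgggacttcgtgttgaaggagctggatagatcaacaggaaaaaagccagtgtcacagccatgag
Dclk1 upstream start, chr3:55242114-55242363, plus strand: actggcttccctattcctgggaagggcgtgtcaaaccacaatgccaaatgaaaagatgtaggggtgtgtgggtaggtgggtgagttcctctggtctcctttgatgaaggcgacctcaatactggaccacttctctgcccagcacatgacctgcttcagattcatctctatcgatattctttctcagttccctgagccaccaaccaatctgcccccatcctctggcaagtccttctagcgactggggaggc
Dclk1 downstream start, chr3:55461478-55461727, plus strand: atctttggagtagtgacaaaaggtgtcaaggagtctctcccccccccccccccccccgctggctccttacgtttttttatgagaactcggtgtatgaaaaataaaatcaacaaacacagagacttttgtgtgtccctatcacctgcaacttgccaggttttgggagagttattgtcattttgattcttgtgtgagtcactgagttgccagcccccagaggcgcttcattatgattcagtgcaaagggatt
Gfi1b, chr2:28621983-28622232, minus strand: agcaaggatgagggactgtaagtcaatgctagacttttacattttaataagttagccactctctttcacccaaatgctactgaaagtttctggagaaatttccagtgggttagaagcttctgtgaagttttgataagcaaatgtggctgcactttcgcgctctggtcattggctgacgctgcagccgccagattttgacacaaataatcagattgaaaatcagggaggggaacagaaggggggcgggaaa
Sh2d6, chr6:72520037-72520286, minus strand: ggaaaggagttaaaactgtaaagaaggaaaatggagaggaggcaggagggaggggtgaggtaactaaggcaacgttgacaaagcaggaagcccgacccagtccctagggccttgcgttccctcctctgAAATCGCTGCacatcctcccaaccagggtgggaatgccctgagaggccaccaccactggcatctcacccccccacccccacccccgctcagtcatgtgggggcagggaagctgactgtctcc
Avil, chr10:127000459-127000708, plus strand: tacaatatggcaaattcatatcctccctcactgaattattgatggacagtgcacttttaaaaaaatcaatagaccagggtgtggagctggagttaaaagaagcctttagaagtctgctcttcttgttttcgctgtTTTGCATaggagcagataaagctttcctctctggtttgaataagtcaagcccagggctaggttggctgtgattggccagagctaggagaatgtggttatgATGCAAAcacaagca
The octamer ATGCAAAT, the motif that POU factors such as Pou2f3 bind, was searched on both strands. It was in 0 of the 7 windows, against 1.6% of all 32851 promoter windows of the same length. Its first 7 letters, ATGCAAA, which overlap it, were found only in the Avil window, from base 115 to 109 before the start on the opposite strand and from base 15 to 9 on the same strand, against 4.12% of all windows. The letters AAATC, then 3 letters of any kind, then GC, a loose form of the element bound by the repressors Gfi1 and Gfi1b, were found only in the Sh2d6 window, from base 122 to 113 before the start, against 2.4% of all windows. A match is only a match of letters, and the deposited values are per gene, so the Dclk1 starts cannot be told apart in them.

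The comparisons of CeD+GR with CeD and with control set the model that had received the nanoparticles beside the same model without them and beside wild-type mice. Dclk1, Pou2f3 and Gfi1b were below every CeD library in all 3 CeD+GR libraries, and these genes and Trpm5 were below every control library as well. In each comparison 3.04% of all tested genes were below without overlap. Gfi1b missed the filter, and its place rests on 4 reads in CeD+GR 1 against 5 in CeD 1. Alox5ap and Avil were high in a single CeD+GR library, and Il25 was at the limit of detection. None of the 7 tested genes passed limma's test across all genes in either comparison, where 0% of all tested genes did.

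Pou2f3, the transcription factor on which the tuft lineage depends (ENSMUSG00000032015, mm10 chromosome 9, 43123939 to 43210369), stood at 0.669, 0 and 0.238 FPKM in CeD+GR 1 to 3, against 0.726, 0.944 and 0.786 FPKM in CeD 1 to 3 and 0.676, 1.55 and 1.17 FPKM in control 1 to 3. The CeD+GR libraries were the 3 lowest, with CeD+GR 1 close under the lowest CeD and control libraries. In reads, CeD+GR 2 held 0, with an exact Poisson interval of 0 to 3.69 reads, against 40 to 42 in CeD and 38 to 70 in control. The log2 fold change was -0.80 (SE 0.38) against CeD and -1.07 (SE 0.38) against control. Without CeD+GR 2 these values were -0.50 and -0.78. They also depended on the amount added before taking logs, which was 0.5 FPKM. With 0.1 they were -1.63 and -1.99, with 1 they were -0.51 and -0.72, and limma-voom on recovered reads gave -2.77 and -3.13.

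Dclk1, a microtubule-associated kinase that is the most used marker of mouse tuft cells (ENSMUSG00000027797, chromosome 3, 55242364 to 55539068), averaged 0.532 ± 0.125 FPKM in CeD+GR, 1.3 ± 0.35 FPKM in CeD and 0.887 ± 0.131 FPKM in control (SD, n = 3 each). Libraries 1 to 3 held 0.671, 0.498 and 0.428 FPKM in CeD+GR, against 0.906, 1.58 and 1.41 FPKM in CeD and 0.786, 0.839 and 1.03 FPKM in control. CeD+GR did not overlap with either group, while CeD 1 lay within the control range. The log2 fold change was -0.79 (SE 0.27) against CeD and -0.43 (SE 0.27) against control. Dclk1 is also transcribed in neurons, and the enteric neuron and glia list had mean log2 levels of 0.13, 1.17 and 0.3 in CeD+GR, against 0.63 to 1.7 in CeD and 0.53 to 1.14 in control. The part of neuronal transcripts in the Dclk1 level was not tested.

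Trpm5, the channel that depolarises the cell at the end of the taste cascade (ENSMUSG00000009246, chromosome 7, 143069153 to 143094642), stood at 2.62, 1.32 and 1.15 FPKM in CeD+GR 1 to 3, against 2.1, 3.24 and 2.46 FPKM in CeD 1 to 3 and 2.66, 3.41 and 3.48 FPKM in control 1 to 3. CeD+GR 1 lay above CeD 1 and CeD 3 and just under control 1, and the other CeD+GR libraries were the lowest of all. The log2 fold change was -0.54 (SE 0.29) against CeD and -0.80 (SE 0.29) against control. Trpm5 overlaps Tssc4 on the opposite strand, and the strand setting of the counting is not given in the sources used here. Tssc4 stood at 7.24, 14.1 and 21.4 FPKM in CeD+GR 1 to 3, so it was highest in the library where Trpm5 was lowest.

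Sh2d6, an SH2 domain adaptor enriched in tuft cells (ENSMUSG00000052631, chromosome 6, 72513644 to 72521634), stood at 4.57, 4.68 and 1.3 FPKM in CeD+GR 1 to 3, against 3.65, 5.91 and 7.72 FPKM in CeD 1 to 3 and 3.57, 7.75 and 6.93 FPKM in control 1 to 3. The groups overlapped, since CeD 1 and control 1 lay below CeD+GR 1 and 2. The log2 fold change of -0.74 (SE 0.47) against CeD was -0.23 without CeD+GR 3, and that of -0.80 (SE 0.47) against control was -0.30 without it.

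Gfi1b, a transcriptional repressor of tuft, erythroid and megakaryocyte cells (ENSMUSG00000026815, chromosome 2, 28609450 to 28621982), had 4, 0 and 2 reads in CeD+GR 1 to 3, 5, 5 and 12 reads in CeD 1 to 3 and 8, 7 and 18 reads in control 1 to 3. In FPKM the CeD+GR libraries held 0.141, 0 and 0.0668, all below the other 6, but the values of CeD+GR 1 and CeD 1 rest on 4 and 5 reads, with exact Poisson intervals of 1.09 to 10.2 and 1.62 to 11.7 reads that cover counting error only. The erythroid list had mean log2 levels of 1.05 to 2.28 in CeD+GR, against 0.47 to 1.75 in CeD and 0.3 to 1.29 in control.

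**Figure D1:**
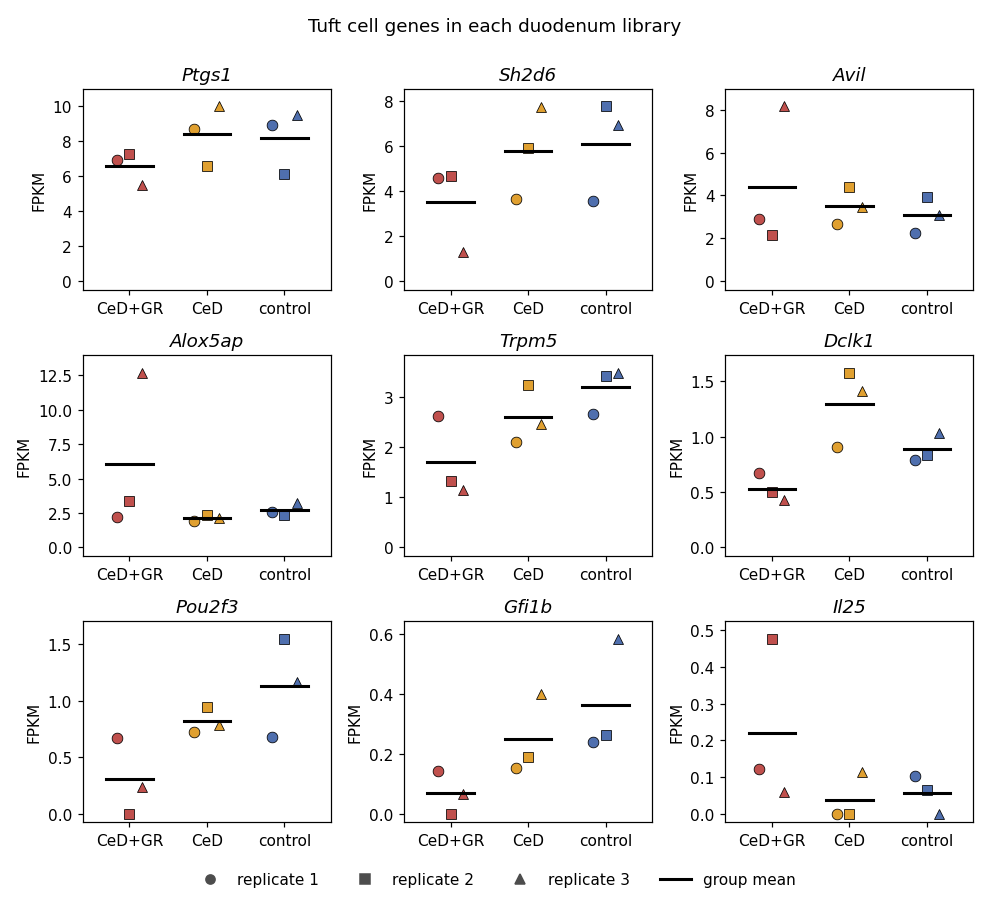
FPKM of the 9 tuft cell genes in each library, by group on the x axis, with a symbol per replicate number and a bar at the group mean. The CeD+GR libraries lie lowest for Pou2f3, Dclk1 and Gfi1b, while CeD+GR 3 is far above all others for Alox5ap (12.7 FPKM) and Avil (8.15 FPKM).

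Ptgs1, the cyclooxygenase that starts prostaglandin synthesis (ENSMUSG00000047250, chromosome 2, 36230426 to 36252272), averaged 6.56 ± 0.922 FPKM in CeD+GR, 8.42 ± 1.73 FPKM in CeD and 8.18 ± 1.8 FPKM in control (SD, n = 3 each). The groups overlapped, with CeD+GR 1 and 2 at 6.93 and 7.24 FPKM, above CeD 2 at 6.56 and control 2 at 6.12 FPKM. It varied least of the tested genes, by a factor of 1.81 between its highest and lowest library, and its log2 fold change was -0.33 (SE 0.24) against CeD and -0.28 (SE 0.24) against control. Ptgs1 is also made by endothelial and smooth muscle cells. The endothelial list had mean log2 levels of 1.83 to 2.1 in CeD+GR, against 0.76 to 1.84 in CeD and 0.76 to 1.91 in control. The smooth muscle list stood at 3.67 to 5.72 in CeD+GR, against 4.5 to 6.47 in CeD and 4.86 to 5.54 in control. Their part in the Ptgs1 level was not tested.

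Alox5ap, the membrane protein that presents arachidonic acid to 5-lipoxygenase (ENSMUSG00000060063, chromosome 5, 149264767 to 149288153), stood at 2.23, 3.35 and 12.7 FPKM in CeD+GR 1 to 3, against 1.94, 2.39 and 2.14 FPKM in CeD 1 to 3 and 2.55, 2.36 and 3.26 FPKM in control 1 to 3. CeD+GR 3 alone was high, and the other 8 libraries lay between 1.94 and 3.35 FPKM. The log2 fold change of 0.97 (SE 0.51) against CeD was 0.29 without CeD+GR 3, and that of 0.70 (SE 0.51) against control was 0.02 without it. Leukocytes also transcribe Alox5ap. The macrophage and granulocyte list had a mean log2 level of 1.87 in CeD+GR 3, within the 1.26 to 2.57 of the other libraries, whereas the mast cell list stood at 0.68 there and between -0.59 and -0.29 elsewhere. The summed level of the 9 mast cell markers was 16 FPKM in CeD+GR 3, with 0 of them at 0, against 2.45 to 4.6 FPKM in the other 8 libraries, with 2 to 6 at 0. In recovered reads the mast cell list held 472 in CeD+GR 3 and 222 to 513 in the other 8 libraries. Kit, also on that list, went the other way. It was below every CeD and every control library in CeD+GR, as 3.04% of all tested genes were in each comparison. The part of transcripts of the mast cell and gastric lists in the Alox5ap level was not tested.

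Avil, an actin-binding protein of the villin family found in tuft cell and sensory neuron protrusions (ENSMUSG00000025432, chromosome 10, 127000709 to 127020994), stood at 2.91, 2.17 and 8.15 FPKM in CeD+GR 1 to 3, against 2.67, 4.39 and 3.45 FPKM in CeD 1 to 3 and 2.25, 3.94 and 3.11 FPKM in control 1 to 3. CeD+GR 3 was again above all others and CeD+GR 2 was the lowest of all. The log2 fold change against CeD of 0.12 (SE 0.43) turned to -0.39 without CeD+GR 3, and that against control of 0.28 (SE 0.43) turned to -0.23. Avil overlaps Tsfm on the opposite strand, and Tsfm too was highest in CeD+GR 3, at 8.95 FPKM against 3.74 to 6.06 FPKM elsewhere. Without the strand setting, reads of these genes cannot be assigned with certainty.

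Il25, the cytokine by which tuft cells activate innate lymphoid cells (ENSMUSG00000040770, chromosome 14, 54932695 to 54935837), had 2, 8 and 1 reads in CeD+GR 1 to 3, 0, 0 and 2 reads in CeD 1 to 3 and 2, 1 and 0 reads in control 1 to 3. CeD+GR 2 held 8 of all 16 reads, with an exact Poisson interval of 3.45 to 15.8 reads. Il25 missed the filter and was not tested in the main fit, and with 16 reads in all no group difference is read from it. CeD+GR 2, with the most Il25 reads, had 0 reads of Pou2f3.

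**Figure D2:**
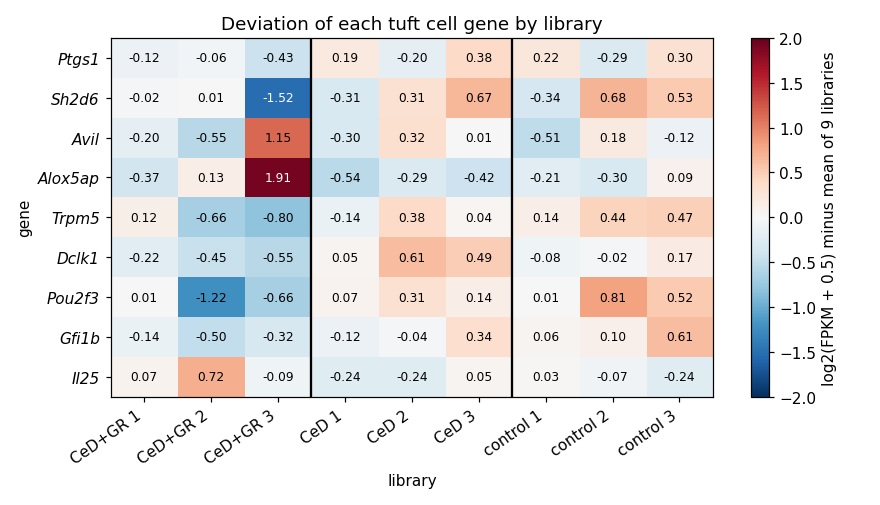
Deviation of log2(FPKM + 0.5) from the gene's own mean over the 9 libraries, with genes down the page and libraries across, separated into CeD+GR, CeD and control. CeD+GR 2 and CeD+GR 3 are low in Trpm5, Dclk1, Pou2f3 and Gfi1b, CeD+GR 3 is high in Avil (1.15) and Alox5ap (1.91), and CeD+GR 1 deviates by at most 0.37 in either direction.

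Counted over all 9 genes, 6 had a negative log2 fold change in CeD+GR against CeD, with a median of -0.39, beside a median of 0.01 over the 14683 tested genes. Against control 6 were negative, with a median of -0.43, beside 0.00 over all tested genes. The comparisons share the CeD+GR libraries. In CeD+GR against CeD, 3 of the 9 genes were below without overlap, 2 of them among the 7 tested, where 3.04% of all tested genes were. Against control 4 of the 9 were, 3 of them tested, where 3.04% of all tested genes were as well. No tuft cell gene was above without overlap, where 3.01% and 2.54% of all tested genes were. Since the genes were chosen with these results known, nothing is read from these shares.

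In limma's test 0 of the 7 tested genes passed in either comparison, with a smallest adjusted p of 1, and 0% of all tested genes were called lower or higher. At an unadjusted p under 0.05 there were 1 in CeD+GR against CeD, Dclk1, and 2 against control, Pou2f3 and Trpm5. Over all 14683 genes 167 higher and 258 lower passed that limit against CeD, and 193 higher and 207 lower against control. Limma-voom on recovered reads also called 0 of the 7.

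The replicate 1 libraries lay close together. There Pou2f3 stood at 0.669 FPKM in CeD+GR, 0.726 in CeD and 0.676 in control, Trpm5 at 2.62, 2.1 and 2.66 FPKM for CeD+GR, CeD and control, and Sh2d6 at 4.57, 3.65 and 3.57 FPKM, again for CeD+GR, CeD and control. With replicates 2 and 3 only, the log2 fold changes against CeD were -1.17 for Pou2f3, -1.05 for Dclk1, -0.94 for Trpm5 and -1.25 for Sh2d6, and 5 of the 9 genes were below CeD without overlap, where 15.9% of all tested genes were. Against control 5 were below as well, where 18.7% of all tested genes were. In the same libraries Alox5ap was above CeD and above control without overlap, where 15.3% and 15.9% of all tested genes were. With CeD+GR 3 left out, the same 3 and 4 genes were below CeD and control without overlap, where 6.56% and 6.25% of all tested genes were. Il25 was then above both, where 6.4% and 5.65% of all tested genes were. That separation rests on 2 reads in CeD+GR 1, against 2 reads in CeD 3 and 2 reads in control 1. With CeD 1 left out, Sh2d6 too was below CeD, so that 4 genes were, where 7.27% of all tested genes were. Gfi1b was among the genes below in each of these counts. Gfi1b and Il25 missed the filter, so neither is among the tested genes that these shares describe.

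**Figure D3:**
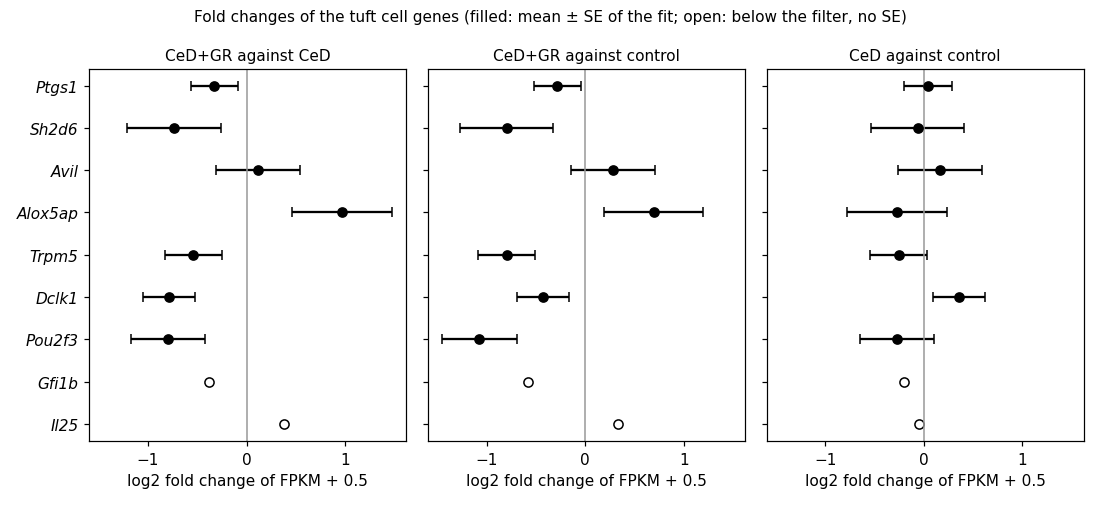
Log2 fold changes of FPKM + 0.5 for the 9 genes in the 3 comparisons, with bars of 1 SE from limma and open circles for the genes below the filter. Pou2f3 and Dclk1 lie left of 0 in both comparisons of CeD+GR, at -0.80 and -0.79 against CeD, while Alox5ap lies right of 0, and in CeD against control every gene lies between -0.27 and 0.36.

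The comparison of CeD with control set the challenged model beside wild-type mice without enhanced stimulation. No tuft cell gene separated the groups. Dclk1 had the largest positive log2 fold change, at 0.36 (SE 0.27), and Pou2f3 the most negative, at -0.27 (SE 0.38), with Alox5ap at -0.27 (SE 0.51) and Trpm5 at -0.26 (SE 0.29). Sh2d6 stood at -0.06 (SE 0.47), Ptgs1 at 0.04 (SE 0.24) and Avil at 0.16 (SE 0.43), and of the 7 tested genes only Dclk1 differed by more than its standard error. Over the 9 genes the median was -0.06, with 6 negative, beside 0.00 over all tested genes. All 9 genes overlapped between the groups, where 2.49% of all tested genes lay lower and 2.2% higher without overlap. With CeD 1 left out, Dclk1 lay above every control library, where 7.53% of all tested genes did. With replicates 2 and 3 only, Dclk1 was above control without overlap, where 18.2% of all tested genes were, and Pou2f3 and Trpm5 were below, where 21.1% were. Limma called 0 of the 7 tested genes, with 0 at an unadjusted p under 0.05, and limma-voom called 0, while 0% of all tested genes were called.

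Other genes known from tuft cells were read from 3 lists. Of 21 identity and signalling genes in the table, 19 were tested. Limma called 0 of them in any comparison, with 2 at an unadjusted p under 0.05 in CeD+GR against CeD, Spib and Sh2d7, and 0 in the others, beside the 167 higher and 258 lower of all tested genes against CeD. Their median log2 fold change was -0.25 in CeD+GR against CeD, with 16 of the 19 negative, -0.42 in CeD+GR against control, with 15 negative, and -0.05 in CeD against control, with 11 negative. Over all tested genes 48.9%, 50.3% and 49.4% were negative in these comparisons. Spib, an ETS transcription factor of tuft and B cells, stood at 2.09, 2.1 and 0.981 FPKM in CeD+GR, against 2.35, 4.84 and 3.11 FPKM in CeD and 2.09, 4.17 and 2.6 FPKM in control. The lymphocyte list had mean log2 levels of 0.67 to 1.53 in CeD+GR, against 1.05 to 1.15 in CeD and 1.33 to 1.64 in control, and its part in the Spib level was not tested. Sh2d7, an adaptor related to Sh2d6 by its SH2 domain, stood at 2.01, 0.736 and 0.798 FPKM in CeD+GR, against 1.54, 3.12 and 2.2 FPKM in CeD and 2.03, 2.5 and 2 FPKM in control. Strip2, a scaffold protein of the striatin complex, stood at 0.628, 0.259 and 0.206 FPKM in CeD+GR. It overlapped with CeD, at 0.633, 1.01 and 0.627 FPKM, and was below every control library, at 0.666 to 0.918 FPKM. Of the 19 tested genes 1, Strip2, was below control without overlap, where 3.04% of all tested genes were. For all 3 genes CeD+GR 1 was close to the replicate 1 libraries of the other groups.

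Of 10 taste signalling genes and receptors only 4 were tested, and limma called 0, with 0 at an unadjusted p under 0.05. The median log2 fold change was 0.01 in CeD+GR against CeD and -0.33 in CeD+GR against control, and -0.13 in CeD against control. Il17rb, the receptor subunit for interleukin 25, stood at 0.801, 1.18 and 0.412 FPKM in CeD+GR. CeD held 1.24 to 1.63 FPKM and control 1.02 to 1.92 FPKM. Of the 4 tested genes 1, Il17rb, was below CeD without overlap, where 3.04% of all tested genes were. Plcb2, the phospholipase of the taste cascade, stood at 1.15, 1.3 and 0.26 FPKM in CeD+GR, against 0.432 to 1.05 FPKM in CeD and 0.89 to 1.75 FPKM in control. Itpr2, a calcium channel of the endoplasmic reticulum that many cells make, stood at 1.37, 4.06 and 4.22 FPKM in CeD+GR, against 2 to 2.26 FPKM in CeD and 2.01 to 2.51 FPKM in control. The taste G protein subunits Gnat3, Gnb3 and Gng13, chosen after their values were seen, had 30, 17 and 1 reads in all libraries, and 14 of the Gnat3 reads were in CeD+GR 2.

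Of 6 eicosanoid and acetylcholine enzymes 5 were tested. Limma called 0, with 1 at an unadjusted p under 0.05, Alox5 in CeD+GR against CeD. The median log2 fold change was 0.34 in CeD+GR against CeD and 0.20 in CeD+GR against control, with 3 of the 5 positive in each, and 0.07 in CeD against control. Alox5, the 5-lipoxygenase that Alox5ap serves, stood at 0.818, 0.139 and 0.358 FPKM in CeD+GR. CeD held 0.86, 1.15 and 1.48 FPKM and control 0.762, 0.915 and 1.31 FPKM. Of the 5 tested genes 1, Alox5, was below CeD without overlap, where 3.04% of all tested genes were. Its log2 fold change was -0.87 (SE 0.34) against CeD and -0.72 (SE 0.34) against control. In CeD+GR 3 Alox5 was at 0.358 FPKM and Alox5ap at 12.7 FPKM. Pla2g4a, the phospholipase that frees arachidonic acid, was also highest in CeD+GR 3, at 6.26 FPKM against 0.566 to 2.64 FPKM elsewhere. Ptges, a prostaglandin E synthase, stood at 1.84 to 1.95 FPKM in CeD+GR, 0.759 to 2.31 FPKM in CeD and 0.452 to 2.49 FPKM in control. Ltc4s, the leukotriene C4 synthase, was chosen after its values were seen. It stood at 2.8, 12.1 and 1.87 FPKM in CeD+GR, against 1.11, 3.63 and 6.82 FPKM in CeD and 1.63, 5.86 and 4.33 FPKM in control, so CeD+GR 2, without Pou2f3 reads, held its highest level.

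Of 20 genes of the circuit with innate lymphoid cells 10 were tested, and limma called 0 in any comparison, with 0 at an unadjusted p under 0.05. The effector cytokines Il13, Il5 and Il9, chosen after their values were seen as was Il4, had 1, 0 and 0 reads in all 9 libraries, and Il4 had 57. The median log2 fold change of the tested genes was 0.10 in CeD+GR against CeD, -0.03 in CeD+GR against control and -0.10 in CeD against control. Il33, an alarmin that acts on the lymphoid cells, stood at 11.4, 13.2 and 34.7 FPKM in CeD+GR, against 5.93, 23.2 and 30.5 FPKM in CeD and 5.18, 12.5 and 9.72 FPKM in control. Il1rl1, the receptor of interleukin 33, stood at 1.62, 0.322 and 2.67 FPKM in CeD+GR, against 0.238 to 0.651 FPKM in CeD and 0.12 to 1.04 FPKM in control. Areg, an epidermal growth factor family ligand, ran from 20.4 to 42.2 FPKM in CeD+GR, 19.9 to 21.7 FPKM in CeD and 16.6 to 72.6 FPKM in control. CeD+GR overlapped with CeD and with control for each of these genes.

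Markers of other epithelial cells were set beside the tuft cell genes. In CeD+GR against CeD the median log2 fold change was 0.01 for 11 pan-epithelial genes, -0.74 for 10 enterocyte genes, all negative, and -0.40 for 8 goblet cell genes, 6 of them negative. It was -0.41 for 8 stem and secretory progenitor genes, 6 of them negative, -0.13 for 7 Paneth cell genes and -0.08 for 10 enteroendocrine genes. The mean log2 level of the stem and secretory progenitor list was lowest in CeD+GR 2, at 1.38, against 2.14 to 2.93 in CeD and 1.92 to 2.85 in control, and its part in the tuft cell levels was not tested. Relative to the pan-epithelial list, the median of the 9 tuft cell genes was -0.37 in CeD+GR against CeD and -0.40 against control, against -0.39 and -0.43 without that step. The mean log2 level of the enterocyte list was 10.36, 10.41 and 8.2 in CeD+GR 1 to 3, 9.68 to 11.02 in CeD and 9.87 to 10.74 in control, so CeD+GR 3 was the lowest library in enterocyte transcripts. Its part in the tuft cell levels was not tested. CeD+GR 2 lay within the range of the other groups for enterocyte genes and was lowest of all for the mean level of the tuft cell genes, at 0.83 against 0.97 to 1.31 in CeD and 1.05 to 1.38 in control. It also had the lowest goblet cell level, at 6.59 against 6.97 to 8.1 in the other 8 libraries.

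**Figure D4:**
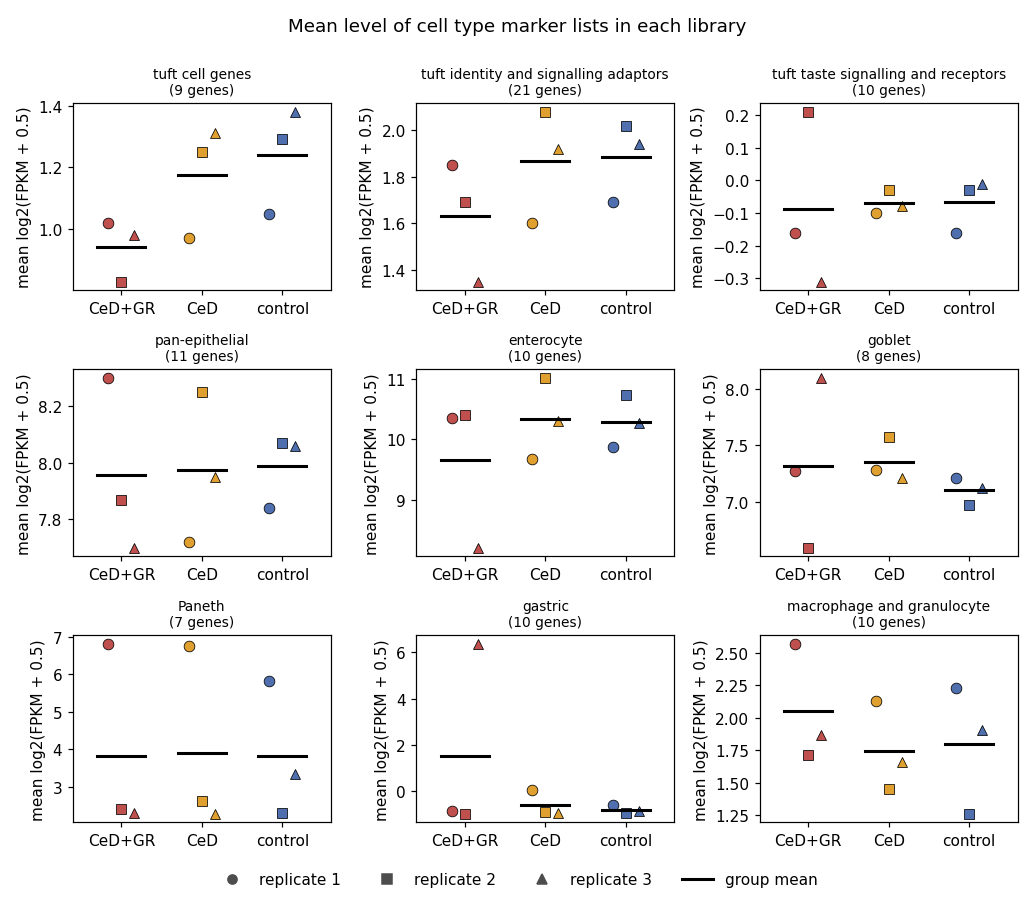
Mean log2(FPKM + 0.5) of the 9 tuft cell genes and of 8 marker lists in each library, by group on the x axis, with a symbol per replicate number and a bar at the group mean. The gastric list is high in CeD+GR 3 only (6.37) and the Paneth list in the replicate 1 libraries only, while the tuft cell genes stand at 0.83 to 1.02 in CeD+GR, where CeD 1 at 0.97 overlaps.

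The protein-coding genes most like the tuft cell genes were ranked by Pearson's r with the mean standardised log2 level of the 7 tested genes over the 9 libraries, among 12384 genes, as a measure of likeness with no test. The libraries share groups and tissue composition, which such a measure also reads. The mean standardised level of the tuft cell genes was lowest in CeD+GR 1 to 3, at -0.23, -0.81 and -0.46, against -0.16 to 0.58 elsewhere. Genes picked for likeness to it are therefore low in CeD+GR largely through that choice. The 6 highest were Nacc2 (0.98), Slc10a4 (0.97), Mettl24 (0.96), Acot11 (0.95), Alox5 (0.94) and Tex12 (0.93). Of these only Alox5 belongs to the tuft lists, whose next genes were Sh2d7 in place 47 and Strip2 in place 52. Other genes of the tuft and circuit lists were near the opposite end, with r of -0.70 for Ptges, -0.62 for Pla2g4a, -0.59 for Itpr2 and -0.57 for Il1rl1, in places 12138, 11872, 11776 and 11665. Slc10a4, a solute carrier family member known from vesicles of cholinergic neurons, stood at 0.276, 0 and 0.203 FPKM in CeD+GR, against 0.959, 2.01 and 2.94 FPKM in CeD and 0.704, 1.49 and 2.36 FPKM in control, without overlap. Its log2 fold change was -1.84 (SE 0.43) against CeD and -1.55 (SE 0.43) against control, and limma's adjusted p was 1 in both. Acot11, an acyl-CoA thioesterase, stood at 9.79 to 12.8 FPKM in CeD+GR, 14.4 to 16.5 FPKM in CeD and 14.6 to 18.8 FPKM in control, also without overlap between CeD+GR and the others. Nacc2 and Mettl24 were below both groups without overlap as well, while Alox5 overlapped with control and Tex12 with CeD. Of all tested genes 3.04% were below without overlap in CeD+GR against CeD, and 3.04% against control. Tex12, a protein of the meiotic synaptonemal complex, was lowest in CeD+GR 2, at 0.562 FPKM, as Pou2f3 was.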

How the data were processed

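Duodenum RNA was depleted of ribosomal RNA and made into strand-specific libraries, per the labels' protocols. Tools named without role or order, per the submitters' processing notes, are DESeq2 1.20.0, featureCounts 1.5.0-p3, HISAT2 2.0.5 and fastp, and the genome build is mm10. The deposited values are FPKM per gene, made by the authors, in 1 table of 54532 genes. The strand setting, FPKM formula and annotation release were not given in the sources used here. Multiplied by the deposited gene length, 100.0% of the FPKM above 0 fell on whole steps of their library (tolerance 0.1 reads), which gave the recovered reads. The library sizes these steps correspond to were 14410550 to 18206426, beside 15373260 to 16852104 reads assigned to genes. Intervals on reads cover counting error only. Of the 9 genes, 8 have the same start and end in GENCODE M21.

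Groups come from the sample titles. Values were taken as log2(FPKM + 0.5), which understates the change of low genes. Genes averaging 0.5 FPKM or more were fitted in R 4.3.3 by limma 3.58.1, as 1 model of group means for all 9 libraries with a mean-variance trend, two-sided, with Benjamini-Hochberg adjustment over all 14683 genes at 0.05. The step was tested on simulated data. The smallest p of an exact permutation test here is 0.1, so none is given. Members and lists were chosen with earlier results of these data known. Named genes are the 9 members, up to 3 genes per tuft list and the circuit list with the smallest unadjusted p in any comparison, the 6 most like genes, and marker genes of libraries that stand apart. Any other gene was picked once its values had been seen, and is marked so, apart from the overlapping genes Tssc4 and Tsfm. Alternatives changed the pseudocount, filter, scaling, libraries, weights and model.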

Additional observations from a re-analysis of the deposited data

How the results depend on the processing

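Limma called 0 of the tested tuft cell genes in any comparison under the 22 alternatives, with a smallest adjusted p of 0.53. The fold changes of single genes moved by more than 1 residual SD in 24 of 621 values, but part of these values could not move. Changes of filter or trend, the fit of only the compared groups and the replicate block leave a fold change as it is. So does leaving out a library of the group not compared. Over all genes 0 were called in each setting, except that leaving out 1 library gave 0 to 1 genes lower in CeD+GR against control, the 1 without control 1. The median log2 fold change of the 9 genes in CeD+GR against CeD was -0.66 when 0.1 was added before taking logs and -0.70 with limma-voom on recovered reads, and in CeD+GR against control it was -0.76 with limma-voom, in place of -0.39 and -0.43. Small added counts weigh less there on genes at or near 0 reads, by construction. Leaving out 1 library gave -0.47 to -0.25 in CeD+GR against CeD, -0.52 to -0.30 in CeD+GR against control and -0.30 to 0.00 in CeD against control. Of 9 pairs of libraries with the same replicate number, 7 deviated together (correlation over 0.1). The pairs below that, at -0.12 and -0.11, both held CeD+GR 3. For 4 of 9 libraries the best correlation within each other group was with their own number. The labels do not say whether the numbers pair the samples, and these values do not settle it. Each replicate number occurs once per group, so the replicate block cannot change a fold change, and the medians stayed at -0.39 and -0.43 by construction. The count of called genes with it was 0. Depth limits Il25 and Gfi1b most, with 16 and 61 reads in all. The counts of genes without overlap when CeD+GR 3, CeD 1 or all replicate 1 libraries are left out were chosen after seeing the data.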
